A study of Arabidopsis thaliana with 20 samples.

Results

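The 200 steadiest well-expressed nuclear genes of Arabidopsis rosettes were taken from 4060 nuclear genes with an average of at least 500 raw counts per library, out of 32548 nuclear genes and 32744 genes in all. The 4060 genes are referred to as the pool. Counts were divided by median-ratio size factors, 1 scaling factor per library computed from the pool, and the 200 genes with the smallest coefficient of variation (CV, the SD over the mean across 10 libraries) were kept, 4.93% of the pool. The genes were thus selected on the CV itself, which is given as a description with no test.

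The study, which evaluated a method for finding differential transcription, used these libraries as replicates of a single condition. It took any difference found between groups of them as a false positive. The libraries hold stranded, ribosomal RNA-depleted total RNA from rosettes of wild-type plants, which were grown in soil for 8 days, moved to an automated phenotyping platform for 19 days and kept at 60% soil water content. The labels give 10 N-limiting replicates watered with 2.5 mM nitrate and 10 N-sufficient replicates at 5 mM nitrate. All 32744 counts of an N-limiting library recurred under the N-sufficient label with its number, for each of the 10 libraries, so the copies were counted once, and no comparison of the nitrogen supplies could be made. The paper describes the replicates as grown under nitrogen deficiency, and the counts alone do not show which supply each library belongs to.

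A gene whose RNA level stays close to constant from plant to plant is commonly used as a reference, against which other genes are measured. Such genes are often said to do housekeeping work, such as folding and degrading proteins, moving vesicles between membranes, and keeping central metabolism running. A count also varies because reads are a sample of molecules, and this counting error shrinks, relative to the mean, as the count grows.

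Library totals ran from 41423334 to 60323158 counts, of which 63.9% to 72.3% fell on the plastid genome and 11000694 to 19583758 on nuclear genes. Size factors ran from 0.739 in replicate 3 to 1.44 in replicate 10. Replicate 3 was also the library least like the others over the pool, with a median Spearman correlation across genes of 0.890 to the other libraries, against up to 0.957 for the rest. The leaf markers RBCS1A, LHCB1.3 and RCA had medians of 248462, 382185 and 64093 normalised counts, as the rosette label says, while the root marker IRT1 was at 0 counts in every library, the flower markers AP3 and PI had at most 1 count and AG 1 to 7 counts. The root marker NRT2.1 had 11 to 38 counts and the root marker PYK10 a median of 513 normalised counts.

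The steadiest gene by the rule was CYP5 (AT2G29960), a cyclophilin, an enzyme that turns peptide bonds at proline during protein folding. The normalised counts of CYP5 had a lowest value of 509, a median of 518 and a highest value of 536 over the 10 libraries, or 519 ± 9.18 (SD, n = 10), a CV of 1.77%. The libraries lay closer together than counting error alone would place them, since a gene with the mean of CYP5 has a counting CV of 4.42%. MTO1 (AT3G01120), cystathionine gamma-synthase, the first committed enzyme of methionine synthesis, was next. Its lowest, median and highest values were 5276, 5461 and 5763, or 5482 ± 149 (SD, n = 10), with a CV of 2.72% and a counting CV of 1.36%. The spread of MTO1 exceeded its counting CV, at a much higher level than that of CYP5. In bulk rosettes, a level per cell and the number of cells that hold the RNA cannot be told apart, for these and all genes that follow.

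The other 10 of the 12 steadiest genes had CVs of 2.96% to 3.41%. They are the splicing factor gene RS2Z32, ATG8F, which encodes a ubiquitin-like protein of autophagosome membranes, and ATS9, a non-ATPase subunit of the proteasome's regulatory particle. They also include COI1, the F-box protein that perceives jasmonate, a phosphofructokinase family gene (AT1G20950) and a glycoside hydrolase family 2 gene (AT1G09010). ALPHA-SNAP2, which helps to take apart SNARE complexes after membrane fusion, an ankyrin repeat gene (AT2G44090), a gene for an OB-fold nucleic acid-binding protein (AT2G04520) and ALDH12A1, which oxidises an intermediate of proline breakdown, complete the 12. COI1 had a lowest value of 829, a median of 863 and a highest value of 911 normalised counts (CV 3.22%), and ATS9 had 1522, 1609 and 1706 (CV 3.16%). Apart from CYP5, each of the 12 genes had at least 1 library beyond 1 counting SD of the mean, and no library of any of them left the mean by more than 7.10%. Ranks moved with the measure, and with the total nuclear count as the scaling CYP5 stood at rank 52, AT1G20950 at 224 and ALDH12A1 at 238, while by the median absolute deviation CYP5 stood at rank 4.

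**Figure D1:**
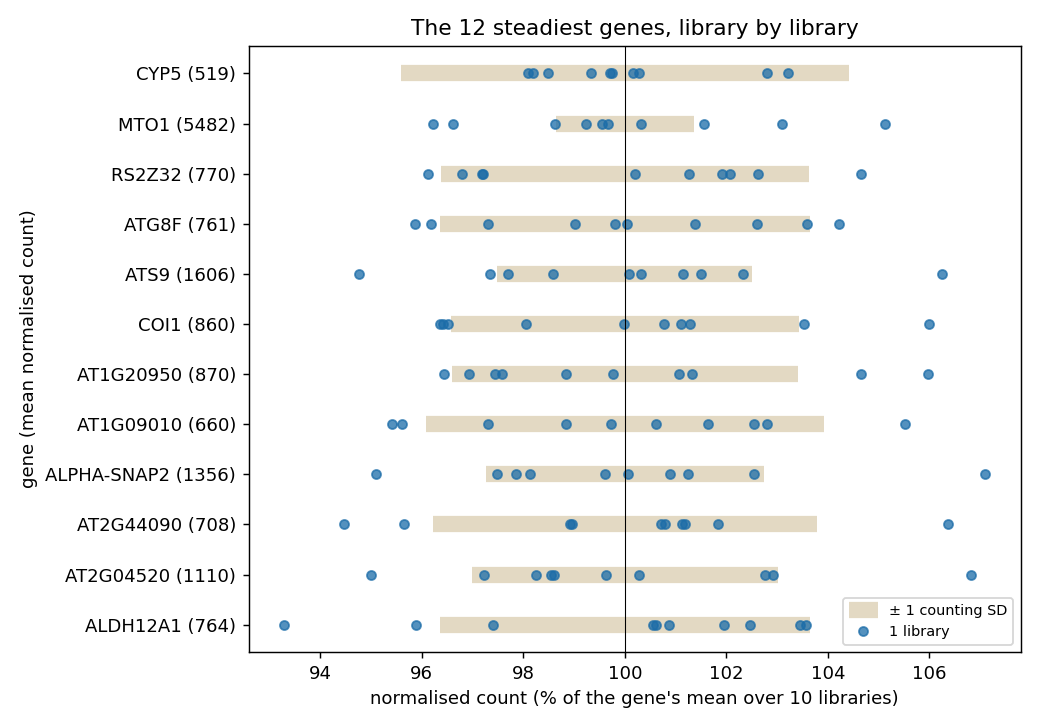
Normalised counts of the 12 steadiest genes in each of the 10 libraries (points), as a percentage of the gene's own mean, with the mean normalised count after each name; bars mark 1 counting SD on either side of the mean. CYP5 keeps every library inside its bar, while the bar of MTO1, with a mean of 5482, is narrower than the spread of its points.

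The 250 bases before the annotated start of the 5 steadiest genes are shown because they are where the core promoter lies and because the 5 genes differ in the short motifs they hold there. Sequences are from RefSeq assembly TAIR10.1 and run 5′ to 3′ towards the gene. Capitals mark matches, on either strand, to the TATA box TATAAA, the site II element GGCCCA, the telo box AAACCCTA, the G-box CACGTG and the repeat GAAGAA.
CYP5 (chr2:12770669-12770918, minus strand): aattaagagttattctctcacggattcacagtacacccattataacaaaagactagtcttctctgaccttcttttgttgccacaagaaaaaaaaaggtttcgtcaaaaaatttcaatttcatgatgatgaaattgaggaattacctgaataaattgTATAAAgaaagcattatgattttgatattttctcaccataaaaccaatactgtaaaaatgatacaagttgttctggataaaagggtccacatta
MTO1 (chr3:42160-42409, minus strand): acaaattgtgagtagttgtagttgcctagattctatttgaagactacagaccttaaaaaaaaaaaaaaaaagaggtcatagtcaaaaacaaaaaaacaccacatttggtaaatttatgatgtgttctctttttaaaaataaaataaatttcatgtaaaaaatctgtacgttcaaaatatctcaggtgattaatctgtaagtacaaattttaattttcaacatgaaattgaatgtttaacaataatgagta
RS2Z32 (chr3:19837089-19837338, minus strand): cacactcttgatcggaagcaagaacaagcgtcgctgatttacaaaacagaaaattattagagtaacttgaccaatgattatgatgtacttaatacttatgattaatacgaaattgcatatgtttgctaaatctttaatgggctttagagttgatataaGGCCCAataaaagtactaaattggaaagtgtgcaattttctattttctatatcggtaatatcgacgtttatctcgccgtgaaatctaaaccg
ATG8F (chr4:9308539-9308788, minus strand): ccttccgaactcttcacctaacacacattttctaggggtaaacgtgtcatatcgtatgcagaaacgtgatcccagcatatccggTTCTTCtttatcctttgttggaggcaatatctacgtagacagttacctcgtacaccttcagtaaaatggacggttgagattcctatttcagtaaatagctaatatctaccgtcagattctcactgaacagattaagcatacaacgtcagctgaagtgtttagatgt
ATS9 (chr1:10180052-10180301, plus strand): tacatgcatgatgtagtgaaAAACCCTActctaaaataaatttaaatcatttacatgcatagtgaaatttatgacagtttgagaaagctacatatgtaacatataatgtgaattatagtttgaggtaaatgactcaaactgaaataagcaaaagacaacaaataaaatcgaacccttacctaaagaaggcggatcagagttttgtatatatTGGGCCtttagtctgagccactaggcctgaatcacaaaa

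CYP5 held a TATA box, MTO1 none of the motifs, RS2Z32 a site II element, ATG8F a GAAGAA repeat on the opposite strand, and ATS9 a telo box and a site II element on the opposite strand. Over the 197 protein-coding genes among the 200, the TATA box was found in 44.7%, the GAAGAA repeat in 29.4%, the site II element in 17.8%, the G-box in 10.2% and the telo box in 2.54%. The other 3810 protein-coding genes of the pool had shares of 45.4% for the TATA box, 27.6% for the GAAGAA repeat, 20.2% for the site II element, 8.53% for the G-box and 3.60% for the telo box. Over all 27444 nuclear protein-coding genes the shares were 47.3%, 30.5%, 13.7%, 6.49% and 4.49%, in the same order of motifs. Median GC content of the window was 31.2% for the steadiest genes and 31.6% for the other genes of the pool. No motif set the steadiest genes apart by more than a few percentage points. A match is only a match of letters, and whether any of them binds a factor was not measured.

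The CVs of the 200 genes ran up to 5.84%, with a median of 4.97%, while the other 3860 genes of the pool had a median of 13.0% and a maximum of 158%. The largest value over the smallest ran from 1.05 to 1.26 among the 200 genes, with a median of 1.17, and the median was 1.50 for the other genes. Among the 200 genes, 143 kept every library within 10% of the gene's mean and 200 within 20%, against 42 and 1514 of the other 3860 genes. There was no gap at the boundary. The last genes inside were emb2742 (a CTP synthase, CV 5.82%), RD2 (an adenine nucleotide alpha hydrolase-like protein, 5.83%) and PAA2 (a proteasome core subunit, 5.84%), and the first genes outside were AT1G27190 (a leucine-rich repeat kinase, 5.85%), LPA1 (a tetratricopeptide repeat protein, 5.86%) and AT2G05310 (an uncharacterized protein, 5.86%).

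Part of the spread in any count is counting error. The counting CV expected from the mean and the size factors had a median of 3.52% over the 200 genes and 3.26% over the other genes. The observed CV was a median of 1.40 times the counting CV for the 200 genes and 4.25 times for the others. When the counting part was taken out in quadrature, the CV beyond counting had a median of 3.54% for the 200 genes and 12.6% for the others. Of the 200 genes, 17 had a CV at or below the counting CV, among them CYP5, RS2Z32, ATG8F, COI1 and ALDH12A1, and none of the other genes of the pool had. The rule kept the smallest CVs, so both counts are shaped by it and say nothing of whether these genes vary beyond counting.

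**Figure D2:**
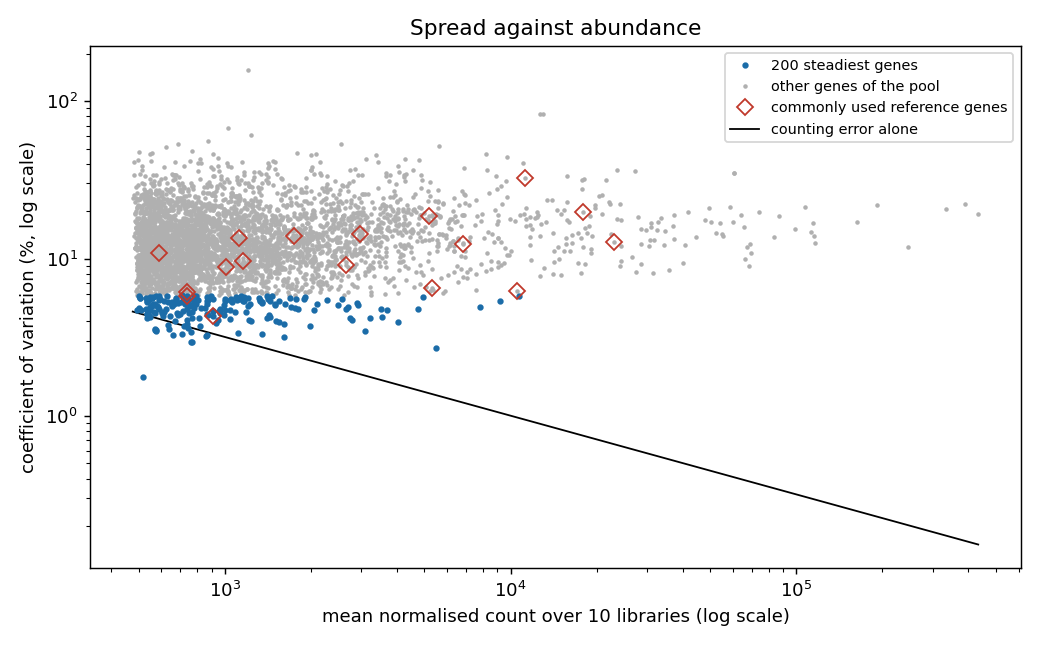
CV over the 10 libraries against the mean normalised count, both on log axes, for the 200 steadiest genes (blue), the other genes of the pool (grey) and the commonly used reference genes (open diamonds); the line is the CV that counting error alone gives. The 200 genes lie at or below 5.84% at every abundance, near the line at low counts and well above it at high counts.

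The 200 genes covered most of the range of abundance but were few at its top. Mean normalised counts ran from 495 to 10742 with a median of 815, against a median of 954 for the other genes. When the pool was cut into 10 bins of 406 genes by mean count, the 8 lower bins held 18 to 32 of the 200 genes each, the next bin 14 and the top bin 7. The median CV of all genes was 11.6% to 12.4% in the 8 lower bins, 14.2% in the next and 15.5% in the top bin. Per kilobase of exon, the median level was 522 normalised counts for the 200 genes and 552 for the others.

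The largest means among the 200 genes belonged to PIP1B, a plasma membrane aquaporin, APX1, a cytosolic ascorbate peroxidase that removes hydrogen peroxide, and CLA1, deoxyxylulose-5-phosphate synthase, which opens the plastid isoprenoid pathway. PIP1B had a lowest value of 9938, a median of 10705 and a highest value of 11642 normalised counts (CV 5.75%). APX1 had 8685, 9084 and 10255 (CV 5.36%), the highest in replicate 3. CLA1 had 7431, 7629 and 8444 (CV 4.95%). MTO1, with a mean of 5482, and TUA6, an alpha-tubulin with a mean of 4961 and a CV of 5.72%, followed. Because counting error is small at these levels, PIP1B, TUA6 and APX1 also had the largest CVs beyond counting of all 200 genes, 5.67%, 5.54% and 5.25%. At the other end stood a protein phosphatase 2C (AT1G09160, mean 495), a translation initiation factor IF2/IF5 (AT1G77840, mean 501) and TIFY8, a TIFY domain protein (mean 503). PIP1B, APX1 and TUA6 belong to families with similar copies, and how reads that align to several copies were counted is not given in the sources used here.

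Like most genes of the pool, most plant reference genes in common use were not among the 200. Of 27 such genes, 17 were in the pool, while 9 fell below the minimum of 500 counts and AT1G58050 was listed at 0. Among the 200 were 2 of the 17, or 11.8%, against 4.93% of the pool. The median CV of the 17 was 10.8%, against 12.6% for the pool. YLS8, a component of the U5 splicing particle, had a lowest value of 861, a median of 899 and a highest value of 982 normalised counts, a CV of 4.32%, which placed it at rank 46. PP2AA3, a scaffold subunit of protein phosphatase 2A, had 639, 754 and 783, a CV of 5.77% at rank 191, with the lowest value in replicate 3. By CV, 45 genes came ahead of YLS8, the steadiest reference gene of the pool, in an order that the rule set on these same counts.

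Other reference genes lay just outside. AT4G33380 had a CV of 6.16% (rank 249) and GAPC1, cytosolic glyceraldehyde-3-phosphate dehydrogenase, a CV of 6.21% (rank 265). TUB4, a beta-tubulin, followed with 6.50% (rank 334). The largest CVs were those of UBQ10, a polyubiquitin gene, with 32.7%, AT5G60390, a translation elongation factor gene, with 19.7%, and UBQ5, with 18.5%. UBQ10 had a lowest value of 6179, a median of 9935 and a highest value of 17242 normalised counts, 2.79 times the lowest. Of the 17 reference genes in the pool, 7 had a CV above the pool's median of 12.6%, among them UBQ10, UBQ5, AT5G60390 and the actin gene ACT8 (14.2%). The other 10 had a CV below it. The reference gene list was written with these data already described and its genes differ in abundance, so the counts are a description.

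**Figure D3:**
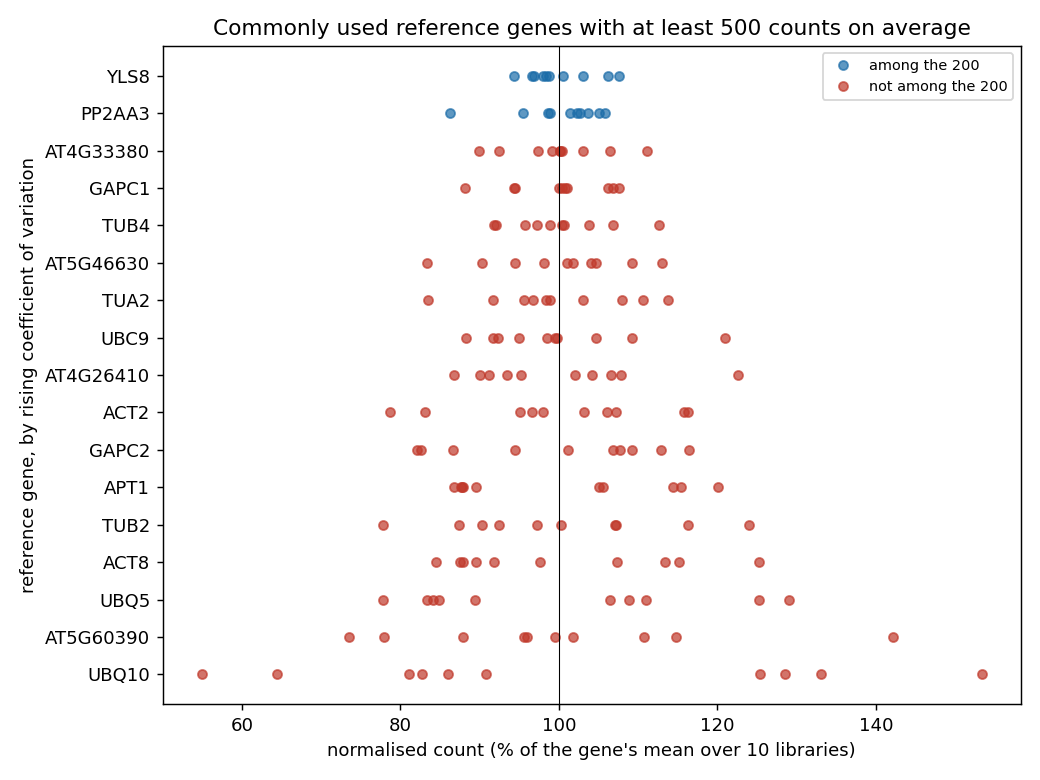
Normalised counts of the 17 reference genes of the pool in each library, as a percentage of the gene's mean, ordered by CV from the top; blue marks YLS8 and PP2AA3, the 2 genes among the 200. The points widen from YLS8 (CV 4.32%) to UBQ10 (CV 32.7%), and the lone low point of PP2AA3 is replicate 3.

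Genes were also read by function, with lists matched on words in the RefSeq gene names. Of the 200 genes, 54 were in at least 1 of the 16 first lists, and 74 when 9 lists added after the values were seen were included, which leaves 126 genes in no list. The share of a list among the 200 is read here against 4.93%, the share of the pool, and against the pool's median CV of 12.6%. The share was lower among abundant genes, at 3.45% in the next-to-top and 1.72% in the top bin by mean count.

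The proteasome, the protease that breaks down ubiquitin-tagged proteins, had 4 of 19 listed genes of the pool among the 200, with a list median CV of 7.66%. The 4 genes are PAB1 (CV 4.57%), PBG1 (4.74%), PAG1 (5.42%) and PAA2 (5.84%), all subunits of the core. A wider match to other spellings of subunit names, added after the values were seen, gave 10 of 35 genes with a median CV of 7.69%. The 6 further genes are ATS9, RPN8A, RPN12a and RPT2a, subunits of the regulatory particle, the core subunit PBF1, and AT4G19006, with CVs of 3.16% to 5.65%. RPT2a, an ATPase of the regulatory particle, had 1006, 1121 and 1201 normalised counts as its lowest, median and highest values.

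Of 70 genes of ubiquitin conjugation and ligation in the pool, 7 were among the 200, and the list's median CV was 11.9%. The steadiest were UBC35 (CV 4.22%) and UBC36 (CV 4.63%), close relatives that join ubiquitin into chains linked through lysine. UBC35 had 485, 543 and 555 normalised counts as its lowest, median and highest values, and UBC36 had 852, 918 and 958. MMZ3, a ubiquitin-conjugating enzyme variant of the kind that works as a partner of UBC35 and UBC36, was outside the list and was picked out after its values were seen, and had a CV of 3.82%. Also on the list were AFB5 (CV 4.84%) and AFB3 (5.56%), F-box proteins that perceive auxin. Of the 4 TIR1 and AFB auxin receptor genes in the pool, a list added after the values were seen, AFB5 and AFB3 were among the 200 and the median CV was 7.34%. The jasmonate receptor COI1, at rank 6, is also an F-box protein but is named in RefSeq as an RNI-like protein and so was not matched.

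Vesicle transport had 10 of 65 pool genes among the 200, with a median CV of 10.1%. The steadiest of these was RABE1c (CV 3.72%), a RAB GTPase, one of the switches that direct vesicles to their target membrane. RABE1c had 766, 816 and 862 normalised counts as its lowest, median and highest values. The next, AT1G55840 (CV 4.37%), is a Sec14p-like phosphatidylinositol transfer protein that the match caught through the letters of Sec1. Genes named as RAB GTPase homologs, a list added later, had 4 of 10 among the 200 with a median CV of 6.57%.

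Phosphatases by name had 7 of 66 pool genes among the 200, with a median CV of 10.3%, led by TOPP2, a type one protein phosphatase (CV 3.54%), and PP2A-3, a catalytic subunit of protein phosphatase 2A (CV 4.35%). The subunits of protein phosphatase 2A, added later as a list, had 3 of 12 among the 200 with a median CV of 6.67%. RCN1, a scaffold subunit like PP2AA3, had 1488, 1631 and 1712 normalised counts as its lowest, median and highest values, with a CV of 3.82% and rank 25. Over all 10 libraries, RCN1 was both steadier than PP2AA3 and more abundant, at 733 against 311 normalised counts per kilobase of exon. The CV of PP2AA3 leaned on its low value in replicate 3, and PP2AA3 stood at rank 17 without that library. The order of RCN1 and PP2AA3 may therefore rest on replicate 3.

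Genes with kinase in the name had 15 of 217 among the 200 and a median CV of 12%. The match took in enzymes of small molecules, AT1G20950, the hexokinase HXK1, the phosphoglycerate kinase PGK and the adenylate kinase ADK1. A narrower list of names that mark protein kinases, added after the values were seen, had 11 of 119 pool genes among the 200, led by AT1G06700 (CV 3.80%) and the MAP kinase MPK17 (CV 3.92%). The 14-3-3 proteins, which bind phosphorylated partners, had 4 of 10 pool genes among the 200, all 10 below the pool's median CV, and a list median of 6.49%. GRF1 (CV 3.99%), GRF9 (4.20%), GRF3 (4.27%) and GRF5 (4.98%) were the 4, and GRF1 had 3848, 3998 and 4376 normalised counts as its lowest, median and highest values. The 14-3-3 list was added after the values were seen.

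The nuclear pore and transport list had 3 of 12 pool genes among the 200 and a median CV of 8.76%, but the copper pump gene RAN1 (CV 4.46%) and the calcium pump gene ECA3 (CV 5.59%) were matched through the words exporting and transporting. The remaining gene was AT2G46520 (CV 5.55%), named as a re-exporter of importin alpha. By whole words, and with the RAN GTPases, 2 of 10 genes were among the 200, AT2G46520 and RAN-1 (CV 5.69%). RNA-binding proteins and helicases had 4 of 69 and a median CV of 10.9%, led by RS2Z32 (2.96%) and APO2 (5.35%). Translation factors and tRNA ligases had 2 of 76 and a median CV of 12.2%, the 2 genes being AT1G77840 (CV 4.89%) and the cap-binding factor gene EIF4E (5.40%). Splicing had 1 of 21, YLS8, with a median CV of 13.1%, and chromatin and transcription 2 of 52, SHA1 (CV 5.25%) and SHL1 (5.73%), with a median of 13.3%. SHA1 is named in RefSeq as a RING/FYVE/PHD zinc finger protein and was also counted on the ubiquitin list. The splicing factor gene RS2Z32 is named in RefSeq as an RNA-binding protein and so was not matched to the splicing list.

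Vacuolar proton pump subunits had 3 of 16 pool genes among the 200 and a median CV of 8.47%, and mitochondrial complexes I and II had 5 of 33 and a median CV of 12.4%, both lists being later additions. CI51, a subunit of complex I, had 2257, 2491 and 2714 normalised counts as its lowest, median and highest values (CV 5.08%), and SDH2-1, a subunit of complex II, had 477, 540 and 565 (CV 4.69%).

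No gene of 5 of the first lists was among the 200. The nitrate response and clock lists are so short that, at the pool's share of 4.93%, a count of 0 would be usual. The 5 lists are ribosomal proteins (0 of 65, median CV 17.4%), stress and defence genes (0 of 52, 15.5%), nitrate response genes (0 of 5, 15.5%), core clock genes (0 of 4, 15.2%) and nuclear photosynthesis genes (0 of 52, 14.3%). The steadiest gene of a list had a CV of 6.16% among stress and defence genes, 8.20% among photosynthesis genes and 8.29% among ribosomal proteins. Photosynthesis genes had a median mean of 25798 normalised counts, in the top bin by mean count, where only 1.72% of genes were among the 200. Ribosomal proteins had 2800, in the next bin, where the share was 3.45%. The part of abundance in these counts of 0 was not tested.

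**Figure D4:**
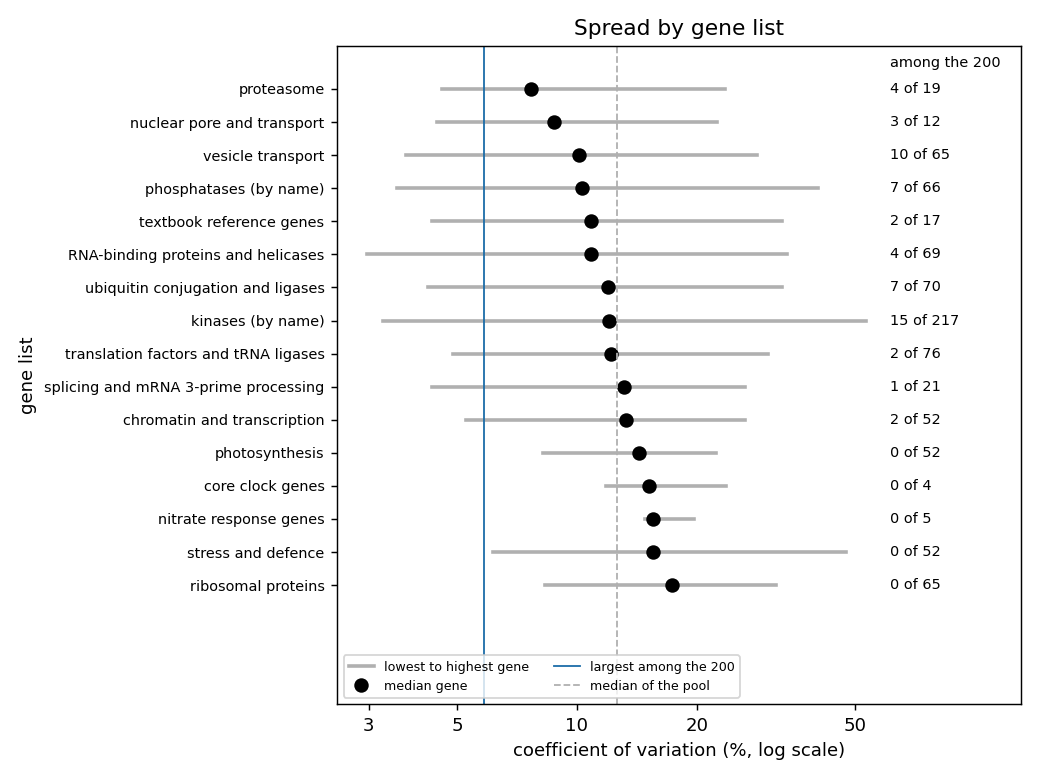
CV of the pool genes of each of the 16 first lists, on a log axis, with the list's median (point) and its lowest to highest gene (line); numbers at the right give the genes among the 200 of the genes in the pool. Medians run from 7.66% for the proteasome to 17.4% for ribosomal proteins, and the lines of 5 lists do not reach 5.84%.

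The 200 genes were spread over the genome. Chromosomes 1 to 5 carried 51, 43, 32, 28 and 46 of them, and chromosome 2 held 21.5% of the 200 genes against 15.3% of the other genes of the pool, chromosome 3 16% against 20% and chromosome 4 14% against 16.3%. The genes had a median of 7 exons against 6, a median of 1774.5 exon bases against 1846 and a median coding length of 1068 bases against 1195.5. Of the 608 pairs of neighbouring genes that were both in the pool, 4 were pairs of the 200.

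Some pairs were similar in sequence, so their counts may not be fully separate, and whether reads were shared was not tested. FRO6 and FRO7, neighbouring genes for ferric reduction oxidases, were 82.1% identical over their longest transcripts, and both had their lowest value in replicate 6, at 2108 for FRO6 and 2424 for FRO7. They shared 31.7% (FRO6) and 31.8% (FRO7) of their 20-base stretches. UBC35 and UBC36 were 85.3% identical over 509 aligned bases but shared only 5.02% (UBC35) and 6.10% (UBC36) of their 20-base stretches. Part of their counts may be shared as well. AT3G28710 and AT3G28715, both subunits of the vacuolar proton pump, were 86.4% identical and had their extremes in different libraries. They shared 26.4% and 26.3% of their 20-base stretches. The non-coding RNA genes AT1G25175 and AT1G25098 were 99.9% identical over 1368 aligned bases, had means of 2782 and 2738 normalised counts and put the 10 libraries in the same order. The 20-base stretches they shared were 72.7% of those of AT1G25175 and 98.7% of those of AT1G25098. Reads of AT1G25175 and AT1G25098 can hardly be told apart, so they may be a single measurement, and their ranks (33 and 42) are uncertain. GUT15 (CV 5.52%) was the other non-coding gene among the 200. In all, 70 of the 200 genes overlap another annotated gene and 58 an antisense gene, and the strand setting of the counting is not given in the sources used here.

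Because the rule kept the smallest CVs, the libraries differed much less for the 200 genes than for the rest of the pool. The median absolute deviation from a gene's own mean was 2.83% (replicate 2) to 3.66% (replicate 3) over the 200 genes, against 6.07% (replicate 5) to 14.9% (replicate 3) over the other genes. Replicate 3 held the highest value of 38 and the lowest of 29 of the 200 genes, and the highest of 832 and the lowest of 849 of the other genes. Size factors computed from the 200 genes alone differed from those of the pool by a factor of 0.990 to 1.011. The 200 genes were chosen as steady under the pool's factors, so this closeness follows from the rule. Across the 10 libraries, the median absolute Spearman correlation of a gene with the plastid share of counts was 0.291 over the 200 genes and 0.576 over the other genes, and with the size factor 0.261 and 0.467. These correlations share the same 10 libraries, and the selection for a small CV itself bears on them, so no test was made.

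**Figure D5:**
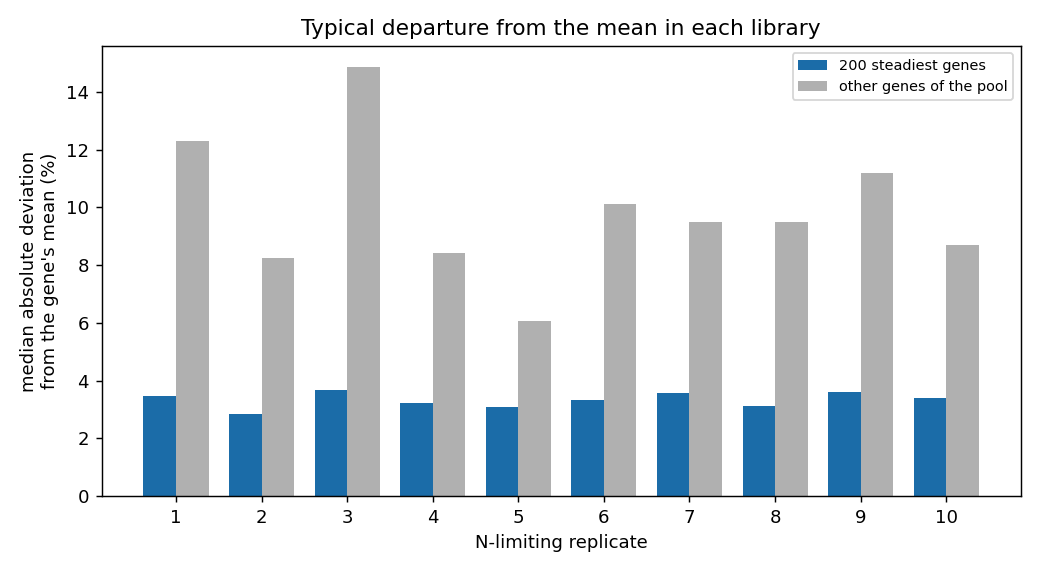
Median absolute deviation of the normalised count from the gene's own mean (%), in each of the 10 N-limiting libraries, for the 200 steadiest genes (blue) and the other genes of the pool (grey). The blue bars stay between 2.83% and 3.66%, and the grey bars run from 6.07% in replicate 5 to 14.9% in replicate 3.

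Single libraries moved some of the genes. PUX4, a UBX domain protein of the kind that binds the segregase CDC48, had a lowest value of 1610, a median of 1655 and a highest value of 1927 normalised counts, and its highest, in replicate 3, was 14.2% above the mean, the largest departure among the 200 genes. PP2AA3 was 13.8% below its mean in the same library. The choice of the 200 genes depended on the processing. With minimum means of 100, 10 and 1000 counts, 105, 106 and 74 of the 200 genes stayed, and 97 stayed by the median absolute deviation. TMM factors kept 192 and size factors from all genes 172. When the total nuclear count replaced the size factors, 77 of the 200 genes stayed among the 200 steadiest, and the relative totals differed from the size factors by a factor of 0.932 (replicate 1) to 1.07 (replicate 3). Without replicate 3, 140 stayed, without replicate 6, 153, and 180 at the most when another library was left out, and 113 stayed whichever library was left out. Under all alternatives but the minimum of 1000 counts, 23 genes stayed, among them CYP5, MTO1, RS2Z32, ATG8F, ATS9, COI1, RABE1c and GRF1.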

How the data were processed

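Raw counts of reads per gene were deposited by the authors for 20 libraries, 1 table each, with no normalisation. Per the labels' processing notes, reads were aligned with STAR to TAIR10; how multi-aligned reads and strand were handled at counting is not given in the sources used here. The 10 N-sufficient tables repeat the 10 N-limiting ones and were not used. The labels give 10 replicates per condition and the design text 5; 10 were used. Depth was 41423334 to 60323158 counts, and counting CVs follow from each mean, covering counting error only, since reads without molecular identifiers are not independent molecules.

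Counts of nuclear genes averaging 500 or more were divided by DESeq2 1.42.0 median-ratio size factors in R 4.3.3, and the 200 smallest CVs were kept. CVs, counting CVs (the square root of the mean inverse size factor over the mean count) and list counts were computed in Python 3.11.15. No significance test was run, because the rule used these counts. Members and lists were chosen with earlier results of these data known, and 9 lists were added after the values were seen. Genes were named by rule: the 12 smallest CVs, the 5 largest and 3 smallest means, ranks 198 to 203, reference genes, the 2 steadiest of each list, extremes of CV beyond counting and the 2 largest deviations; others are marked as picked later or are further members of the lists and pairs described. Names, positions and sequences came from RefSeq TAIR10.1, and all 200 genes matched. Alternatives were TMM factors of edgeR 4.0.16, size factors from all genes, total nuclear counts, minimum means of 10, 100 and 1000, SD of log2 values (pseudocount of 1), median absolute deviation, CV beyond counting and each replicate left out. The ranking script was tested on simulated data. The result of 1 neighbouring pair of genes is not reported here.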

Additional observations from a re-analysis of the deposited data

Results flagged for a closer look

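Over the 46 named genes and 5 library measures, 3 of 102 highest or lowest libraries stood further from the rest than Dixon's limit for 10 values, where chance flags about 1 in 20 groups. The genes were selected on these same counts, and PUX4 and PP2AA3 were named for their largest single deviations, so the flags are a description and are not read against chance. PP2AA3 had 639 normalised counts in replicate 3, its lowest library, and 707 in the next. PUX4 had 1927 normalised counts in replicate 3, its highest library, and 1728 in the next. The total count was highest in replicate 10, at 60323158, against 50240504 in the next library. Among all 200 genes, 3% had such a library, against 3.94% of the other genes of the pool.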

How the results depend on the processing

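The count of the 200 genes kept stayed within 1.5 times of 200 with TMM factors (192), size factors from all genes (172), the SD of log2 values (196), CV beyond counting (174) and each replicate left out (140 to 180, lowest without replicate 3). It moved to 77 with the total nuclear count, 105 and 106 with minimum means of 100 and 10, 97 with the median absolute deviation over the median, and 74 with a minimum of 1000, where 122 of the genes were no longer compared. Under all 3 scalings 60 were kept. The largest CV among the 200 steadiest genes, 5.84% as reported, was 5.04% and 5.02% with minimum means of 100 and 10. It was 7.06% with a minimum of 1000 and 5.17% to 5.91% without 1 replicate. The median CV of the 200 genes, 4.97% as reported, was 6.43% with the total nuclear count, 5.21% with a minimum of 1000 and 4.79% to 5.06% without 1 replicate. Other measures of spread are not on the scale of the CV. By the median absolute deviation over the median, the largest value was 4.38% and the median 4.43%. For the CV beyond counting, the largest value was 4.66% and the median 3.54%. These largest values are of the 200 steadiest genes by each measure, and the medians are of the 200 genes reported. Other minimum means change both the genes compared and the size factors; the cause of the shifts was not tested. At means near 500 counts the counting CV is above 4%, so ranks within the 200 are loosely set by these data. No paired analysis was possible because the N-sufficient tables repeat the N-limiting ones and no groups remained to pair.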

Other observations

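Several regulators among the 200 genes were picked out after their values were seen. LCL1, a MYB-like relative of the clock genes LHY and CCA1 that was not on the clock list, had a lowest value of 625, a median of 684 and a highest value of 756 normalised counts (CV 5.25%). All 4 core clock genes of the pool had CVs of 11.9% to 23.7%. LCL1 was picked from the 200 genes, whose CVs end at 5.84%, so it could not have been less steady than these 4. KIN10, the catalytic subunit of the SnRK1 energy-sensing kinase, had 653, 748 and 756 (CV 5.13%), and the glucose-sensing hexokinase HXK1 had 833, 918 and 989 (CV 4.63%). CDC2, the cyclin-dependent kinase of the plant cell cycle, had 664, 727 and 750 (CV 3.76%), and IAA8, a repressor that the auxin receptors target for degradation, had 2472, 2755 and 2817 (CV 4.91%).

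RIF10 encodes the chloroplast polynucleotide phosphorylase, a 3′ to 5′ ribonuclease. It had 704, 799 and 844 normalised counts as its lowest, median and highest values, with a CV of 5.46% at rank 150, and its lowest library was replicate 3.

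The reference gene AT2G28390, a SAND family gene, fell below the minimum with a mean of 462 raw counts. Its CV of 4.33%, under its counting CV of 4.73%, was close to that of YLS8 (4.32%). The 8 other reference genes below the minimum, with counts, had CVs of 9.32% to 17.8%. Their counting CVs were 5.50% to 9.67%, so counting error makes up part of that spread.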
